A study of Mus musculus with 20 samples.

Results

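Gene set enrichment was compared between the bone marrow myeloid cells of mice carrying B16F10 melanoma and those of mice carrying YUMM3.3 melanoma. All gene sets listed in the authors' pair of enrichment reports for this contrast were taken. There were 3883 sets, 2007 in the report of sets higher with B16F10 and 1876 in the report of sets higher with YUMM3.3. The series as a whole lists 27169 set rows over 14 reports and 7 comparisons, with 3886 distinct set names. Every score, q-value and leading edge given below is a value from the authors' deposited tables, which hold 1 value per gene set and comparison.

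Both groups came from adult C57BL/6 mice with a tumour, and no further allele, drug, tumour stage or dose is named in the labels. B16F10 is a transplantable mouse melanoma chosen by repeated passage for its spread to other organs. YUMM3.3 came from a melanoma of a genetically engineered mouse, so each tumour stands for 1 cell line. The B16F10-bearing group held 3 bone marrow libraries and the YUMM3.3-bearing group held 2. Cells labelled myeloid were obtained by removing CD3e-positive cells, CD3e being a subunit of the T cell receptor complex, and RNA was then extracted on columns. This is a depletion, so the preparation can keep B cells, erythroid precursors, megakaryocytes and progenitors. The labels do not tie a library to an animal. Tumour-free mice, named healthy in the labels, gave 3 more marrow libraries, which enter only as a reference that both tumour groups share. No gene-level values were analysed here, so the labelled cell type could not be checked against marker genes, only against marker gene sets. In bulk samples such as these, fewer cells of a type and less RNA per cell cannot be told apart.

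Bone marrow is where neutrophils, monocytes and their precursors are made. Growing tumours are known to release cytokines that drive marrow myelopoiesis, the output of immature granulocytes and monocytes, and tumour models differ in how strongly they do so. Precursors divide and carry much machinery for making ribosomes and proteins, whereas maturing granulocytes condense their chromatin and shut much of that machinery down.

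Gene set enrichment analysis orders all genes by their difference between groups and asks whether the genes of a set gather at an end of that order. The enrichment score (ES) is the largest excess found along the list. The normalised enrichment score (NES) is that score scaled to allow comparison between small and large sets. Here a positive NES means higher with B16F10 and a negative NES means higher with YUMM3.3, on the reading that a report lists what was higher in the group it names first, which is the sign the deposited scores also carry. The leading edge is the set's genes met before the maximum. Its tags value is the percentage of the set's genes in it, and its list value is the percentage of the whole ranking passed to reach it. A small list value therefore places the leading genes near the very end of the ranking. From the rank at the maximum and the list value, the ranking was inferred to hold between 14548 and 14553 genes. A set was called changed where the deposited false discovery rate q (FDR q) was below 0.05. These q-values come from the authors' permutations, and the sources used here do not say of which kind. Nominal p-values above 0 went down to 0.00171, whereas exchanging the labels of 3 and 2 libraries cannot give a p below 0.1. The calls therefore do not measure the spread between animals.

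Of the 3883 sets, 314 were called higher with B16F10 (8.09%) and 326 higher with YUMM3.3 (8.40%). The 2 directions held similar numbers of sets, but of different shape. The called YUMM3.3 sets reached a signed NES of -3.26, and 40 of them passed a size of 2.5. The called B16F10 sets reached 2.55, and 1 of them passed 2.5. The median called set held 58 genes on the B16F10 side and 57.5 on the YUMM3.3 side. The median list value was 20% of the ranking for called B16F10 sets and 13.5% for called YUMM3.3 sets. The leading edge ended early in the ranking (list value under 10%) in 91 of 326 called YUMM3.3 sets (27.9%) and in 7 of 314 called B16F10 sets (2.23%). The median tags value was higher on the B16F10 side, at 46% of a set's genes against 41%. Sets toward B16F10 thus held many member genes spread over a wide stretch of the ranking, and many sets toward YUMM3.3 held members packed near its far end. The median signed NES over all sets was 0.72, with 2007 sets positive and 1876 negative. No listed score was smaller in size than 0.40 with B16F10 or 0.35 with YUMM3.3. That median thus lies among the smallest positive scores and does not measure a lean toward B16F10. It is set beside the medians of groups of sets below with this limit.

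**Figure D1:**
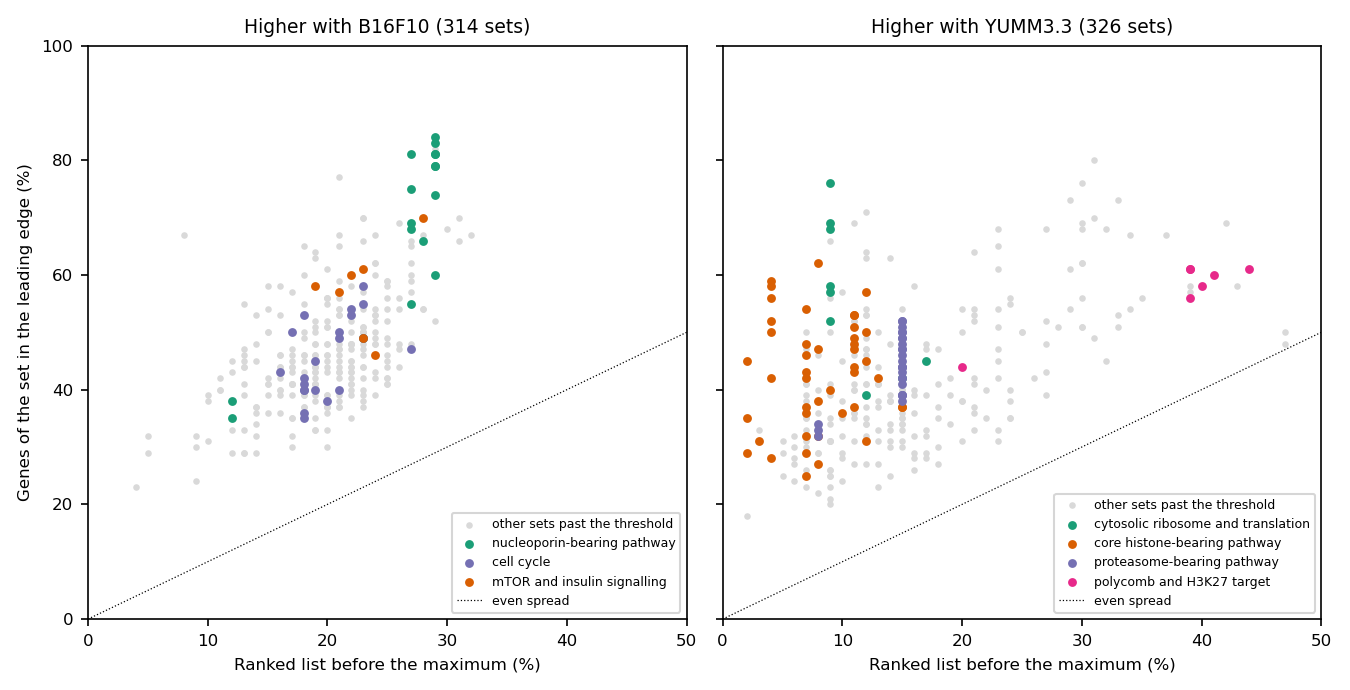
Leading edges of the called sets, higher with B16F10 in the left panel and higher with YUMM3.3 in the right: share of the ranked list passed at the maximum (horizontal axis, percent) against the share of the set's genes in the leading edge (vertical axis, percent), 1 point per set, with colours for selected groups of sets and a line for genes spread evenly. The median list value is 20% in the left panel and 13.5% in the right, where the proteasome points stand in a column at 15% and the histone points lie further left.

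The threshold did not fall at a gap in the scores. On the B16F10 side the last set inside it was REACTOME_G1_S_SPECIFIC_TRANSCRIPTION, with an NES of 1.65 and a deposited q of 0.04999, and the set just outside was REACTOME_TRANS_GOLGI_NETWORK_VESICLE_BUDDING, with 1.65 and 0.0501. On the YUMM3.3 side NAKAJIMA_MAST_CELL was the last inside, with -1.63 and a q of 0.0495, and VALK_AML_CLUSTER_10 was just outside, with -1.63 and 0.0508.

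The source of a set also divided the directions. Of 893 Reactome pathways, which catalogue molecular reactions, 160 were called higher with YUMM3.3 (17.9%) and 75 higher with B16F10 (8.40%). Of 179 sets from the Pathway Interaction Database, a catalogue of signalling pathways, 26 were called higher with B16F10 (14.5%) and 1 higher with YUMM3.3 (0.559%), and their median NES was 1.11 against 0.72 over all sets. Of 170 KEGG sets, 14 were called higher with B16F10 (8.24%, near the 8.09% over all sets) and 21 higher with YUMM3.3 (12.4%, against 8.40%). Many sets of a catalogue share genes, so these counts are not counts of independent processes.

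**Figure D2:**
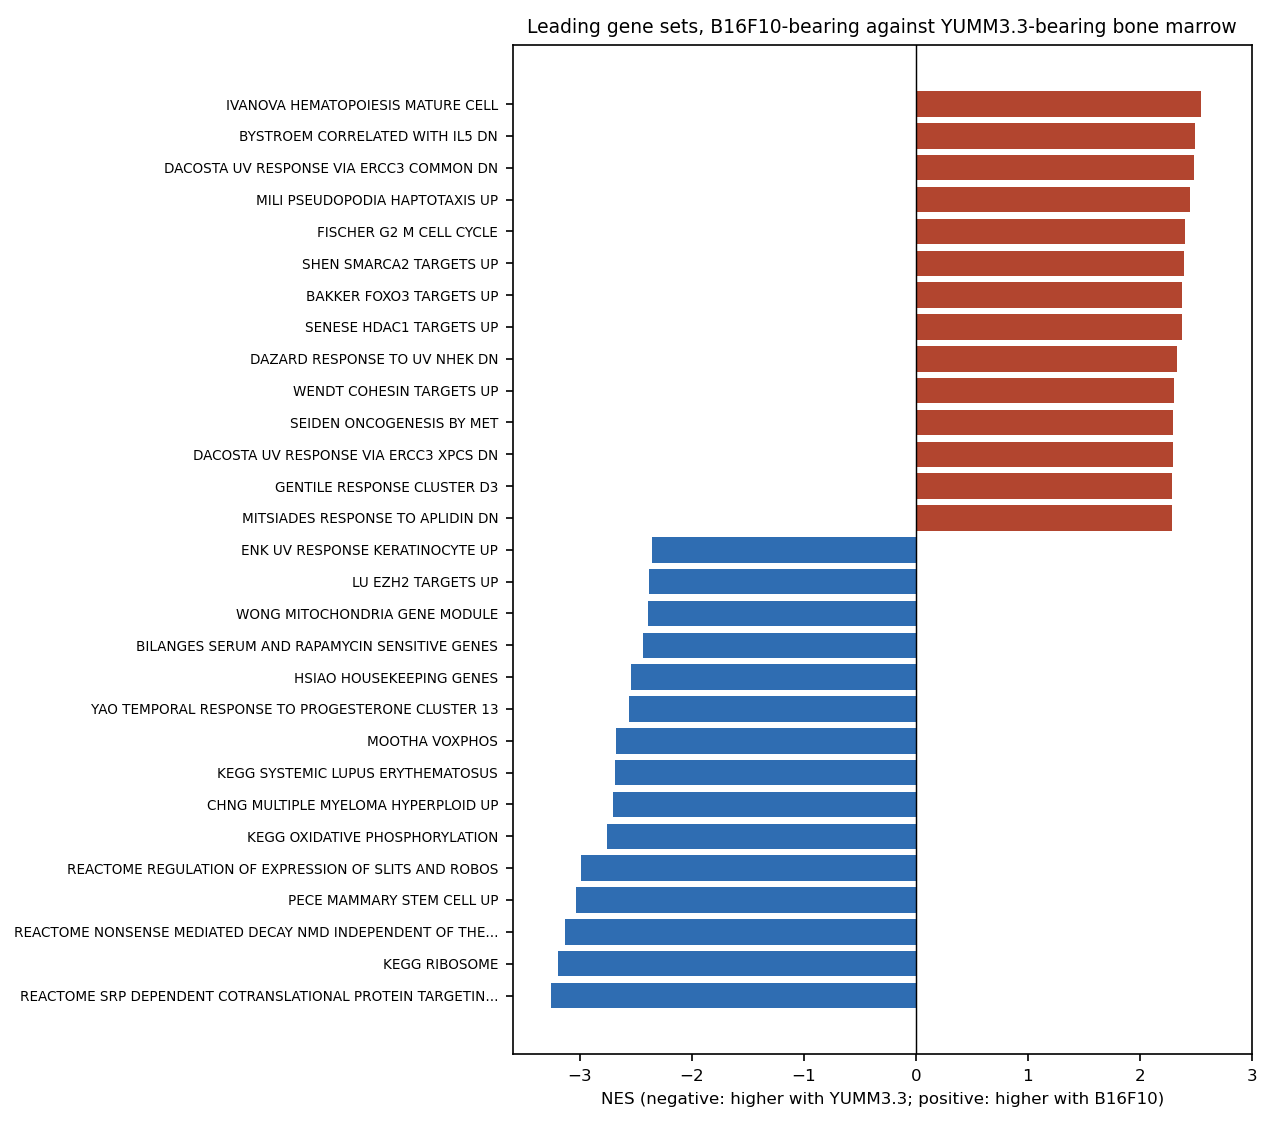
The sets of largest NES size in each direction, no more than 3 that begin with the same word and 1 left out on the B16F10 side, with signed NES on the horizontal axis (positive is higher with B16F10) and 1 bar per set. The YUMM3.3 side runs to -3.26 and is led by ribosome sets, and the B16F10 side runs to 2.55 and is led by a set of mature blood cells.

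The genes of the cytosolic ribosome were higher with YUMM3.3. Of 10 sets grouped under the ribosome and translation, 9 were called higher with YUMM3.3 (90%, against 8.40% over all sets). None was called higher with B16F10, and the median NES was -2.86. KEGG_RIBOSOME, the ribosomal proteins, held 55 genes and had an NES of -3.20, with 76% of them in a leading edge that ended at 9% of the ranking. The pathway of targeting to the endoplasmic reticulum by the signal recognition particle, REACTOME_SRP_DEPENDENT_COTRANSLATIONAL_PROTEIN_TARGETING_TO_MEMBRANE, consists largely of ribosomal proteins and held 75 genes, of which 68% lay in the leading edge (NES -3.26). REACTOME_TRANSLATION is broader, with 236 genes that add initiation factors, transfer RNA ligases and the mitochondrial ribosome. Its NES was -2.62 and its leading edge took in 42% of its genes over 15% of the ranking. The broader set thus had a smaller share of its genes in the leading edge. The exception among the 10 was a set named for metabolism, KEGG_SELENOAMINO_ACID_METABOLISM, whose NES of 1.13 was not called. KEGG_AMINOACYL_TRNA_BIOSYNTHESIS, the enzymes that charge transfer RNAs, was called in the other direction, at 1.65 with 50% of its genes in the leading edge. Its q of 0.0499 was only just inside the threshold. The ribosomal proteins and the charging enzymes of translation thus had scores of opposite sign.

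Sets with unrelated names that list many ribosomal protein genes scored alike. REACTOME_REGULATION_OF_EXPRESSION_OF_SLITS_AND_ROBOS, named for axon guidance molecules, had an NES of -2.99, with 50% of 129 genes in a leading edge that ended at 9% of the ranking, as for the ribosome itself. PECE_MAMMARY_STEM_CELL_UP, a signature of mammary stem cells, had -3.03, and HSIAO_HOUSEKEEPING_GENES, genes found in most tissues, had -2.54. CHNG_MULTIPLE_MYELOMA_HYPERPLOID_UP, from hyperdiploid myeloma, had -2.71. BILANGES_SERUM_AND_RAPAMYCIN_SENSITIVE_GENES, transcripts whose translation depends on the growth kinase mTOR, had -2.43.

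Of 20 mitochondrial sets, 10 were called higher with YUMM3.3 (50%, against 8.40% over all sets) and none higher with B16F10. Their median NES was -1.59, and 9 of the 20 had a positive NES. At q below 0.25 the counts were 5 higher with B16F10 and 11 higher with YUMM3.3. REACTOME_RESPIRATORY_ELECTRON_TRANSPORT, the respiratory chain complexes, had an NES of -2.83 over 68 genes, with 53% in a leading edge that ended at 12% of the ranking. REACTOME_COMPLEX_I_BIOGENESIS, the assembly of the NADH dehydrogenase, held 39 genes with 64% in the leading edge (NES -2.75). KEGG_OXIDATIVE_PHOSPHORYLATION had -2.76 and MOOTHA_VOXPHOS, a curated list of the same process, had -2.68. REACTOME_MITOCHONDRIAL_TRANSLATION, the separate ribosome of the organelle, had -2.35 over 81 genes, with 47% in the leading edge. REACTOME_THE_CITRIC_ACID_TCA_CYCLE_AND_RESPIRATORY_ELECTRON_TRANSPORT, which joins the chain with the cycle that feeds it, had -2.21 with 34% of 116 genes by 12%. The cycle alone, KEGG_CITRATE_CYCLE_TCA_CYCLE, had 1.52 with a q of 0.0938 and was not called. Of 36 hypoxia and glycolysis sets, 2 were called in each direction (5.56%), below the shares over all sets. REACTOME_GLYCOLYSIS had an NES of 2.02, with 60% of 63 genes in a leading edge that reached 29% of the ranking. KEGG_GLYCOLYSIS_GLUCONEOGENESIS, which shares its enzymes, had 1.46 over 48 genes and was not called (q 0.123). The Reactome version also lists nuclear pore proteins, which transport a regulator of glucokinase, and those are described below.

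Pathways that list the core histones, the proteins around which DNA is wound, formed the largest group toward YUMM3.3. A list of 49 such pathways was drawn up after their values were seen, so its counts describe and test nothing. Of these, 44 were called higher with YUMM3.3 and none higher with B16F10, with NES from -2.87 to -1.20 and a median of -2.34. Among the called ones the median tags value was 43% and the median list value 8%. In 11 of the 49 the leading edge ended within 4% of the ranking, with 28% to 59% of the genes already inside it, and all 11 were called. Over all 326 called YUMM3.3 sets, 13 had so short a leading edge. Pathways of this kind list many of the same histone genes, so they are not separate processes. Which genes form their leading edges was not analysed here.

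The named processes spanned transcription, repair, meiosis and senescence. REACTOME_DNA_METHYLATION, the writing of methyl marks on DNA, had an NES of -2.84 over 40 genes, with 58% in a leading edge that ended at 4% of the ranking. REACTOME_RNA_POLYMERASE_I_PROMOTER_ESCAPE, a step in making ribosomal RNA, had -2.87 over 63 genes with 54% in the leading edge. REACTOME_PRC2_METHYLATES_HISTONES_AND_DNA, named for the Polycomb complex that marks silent genes, had -2.67 with 52% of 46 genes by 4% of the ranking. REACTOME_HDMS_DEMETHYLATE_HISTONES, the enzymes that remove histone methyl groups, had -2.55 with 56% of 39 genes. Pathways named for adding and for removing methyl groups therefore scored on the same side, and where the enzymes themselves lay was not analysed. REACTOME_MEIOTIC_SYNAPSIS, the pairing of chromosomes in germ cells, had -2.07, with 29% of 52 genes in a leading edge that ended at 2% of the ranking. KEGG_SYSTEMIC_LUPUS_ERYTHEMATOSUS, an autoimmune disease set that lists histones as autoantigens, had -2.69.

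Pairs of neighbouring pathways were set side by side, one with core histones and the other without. These pairs were chosen with the values known. In base excision repair, REACTOME_BASE_EXCISION_REPAIR_AP_SITE_FORMATION, the removal of a damaged base, had an NES of -2.34 over 40 genes. The following step without histones, REACTOME_RESOLUTION_OF_ABASIC_SITES_AP_SITES, had 0.90 over 38 genes (q 0.776). At chromosome ends, REACTOME_TELOMERE_MAINTENANCE had -2.15 with 36% of 58 genes, and REACTOME_EXTENSION_OF_TELOMERES, the synthesis enzymes alone, had 1.11 and was not called. For the NOTCH receptor, REACTOME_PRE_NOTCH_EXPRESSION_AND_PROCESSING had -2.35 and its step in the Golgi, REACTOME_PRE_NOTCH_PROCESSING_IN_GOLGI, had 0.80. In senescence, REACTOME_DNA_DAMAGE_TELOMERE_STRESS_INDUCED_SENESCENCE had -2.44, with 35% of 54 genes by 2% of the ranking, and REACTOME_ONCOGENE_INDUCED_SENESCENCE had 1.07.

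In a further pair both members were called and their signs were opposite. REACTOME_CONDENSATION_OF_PROPHASE_CHROMOSOMES, which lists histones, had -2.54, and REACTOME_MITOTIC_PROMETAPHASE, which covers the attachment of chromosomes to the spindle, had 2.21. In each of these 5 pairs the member with histones was called toward YUMM3.3 and the member without them had a positive NES. The 5 histone pathways not called had NES of -1.20 to -1.62. They include REACTOME_HOMOLOGY_DIRECTED_REPAIR at -1.42 and REACTOME_DNA_DOUBLE_STRAND_BREAK_REPAIR, the widest set of break repair, at -1.26 over 132 genes.

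Targets of Polycomb, as opposed to its histone substrates, gave a different picture. A group of 30 sets held genes bearing trimethylated lysine 27 of histone H3, the silencing mark, or regulated by Polycomb. Of these, 7 were called higher with YUMM3.3 (23.3%, against 8.40% over all sets) and 1 higher with B16F10 (3.33%, against 8.09%). Their median NES was -1.34. MEISSNER_BRAIN_HCP_WITH_H3K27ME3, CpG-rich promoters with the mark in brain, had -1.89, with 61% of 240 genes in a leading edge that reached 44% of the ranking. MEISSNER_NPC_HCP_WITH_H3K27ME3 had -1.89 as well, with a list value of 39%. Such leading edges run far into the middle of the ranking, unlike the histone sets. LU_EZH2_TARGETS_UP, genes that respond to the Polycomb methyltransferase EZH2, had -2.38 with 44% of 203 genes by 20% of the ranking. The set on the B16F10 side was KAMMINGA_EZH2_TARGETS, a list with many cell division genes, at 1.87 with 62% of 39 genes.

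Long leading edges were found mostly on the YUMM3.3 side. A list value of at least 30% was found for 33 of 326 called YUMM3.3 sets and for 4 of 314 called B16F10 sets. Besides the Polycomb sets, these included genes of specialised tissues, described here after their values were seen. REACTOME_OLFACTORY_SIGNALING_PATHWAY, the smell receptors, had an NES of -1.66 with 48% of 228 genes by 47% of the ranking. That leading edge is hardly denser than an even spread of the genes would give. REACTOME_KERATINIZATION, proteins of the skin surface, had -1.78 with 58% of 93 genes by 43%. REACTOME_POTASSIUM_CHANNELS had -1.63 and REACTOME_THE_PHOTOTRANSDUCTION_CASCADE, the light response of the retina, had -1.83. Of 33 neuronal, ion channel and G protein-coupled receptor sets, 5 were called higher with YUMM3.3 (15.2%, against 8.40% over all sets). None was called higher with B16F10.

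Extracellular matrix sets belonged to the same class. Of 43 matrix and integrin sets, 6 were called higher with YUMM3.3 (14.0%, against 8.40% over all sets). None was called higher with B16F10, and the median NES was -0.99. REACTOME_COLLAGEN_CHAIN_TRIMERIZATION, the joining of collagen chains, had -1.88, with 62% of 39 genes by 30% of the ranking. NABA_CORE_MATRISOME, a catalogue of structural matrix proteins, had -1.84 with 56% of 235 genes by 35%. NABA_SECRETED_FACTORS, growth factors and cytokines, had -2.04 with 57% of 288 genes by 39%.

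Proteasome subunits, which form the machine that degrades ubiquitin-tagged proteins, were higher with YUMM3.3. A list of 30 pathways that include them, made after the values were seen, held 26 sets called higher with YUMM3.3 and none higher with B16F10, with a median NES of -1.84. KEGG_PROTEASOME had an NES of -2.00 over 42 genes, with 52% in a leading edge that ended at 15% of the ranking. In 26 of the 30 the leading edge ended at that same 15%, and in the other 4 at 8%. The genes of these leading edges were not analysed here. REACTOME_CELLULAR_RESPONSE_TO_HYPOXIA, the response to low oxygen through degradation of a transcription factor, had -1.91. REACTOME_DEGRADATION_OF_GLI1_BY_THE_PROTEASOME, a step of hedgehog signalling, had -1.82. The 4 not called include REACTOME_DEGRADATION_OF_BETA_CATENIN_BY_THE_DESTRUCTION_COMPLEX at -1.62 and REACTOME_HEDGEHOG_OFF_STATE at -1.48.

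Pathways with histones or proteasome subunits were also counted under other names. Of 55 WNT, NOTCH and hedgehog sets, 10 were called higher with YUMM3.3 (18.2%, against 8.40% over all sets). In the other direction 1 was called higher with B16F10 (1.82%, against 8.09%). The largest score among the 10 was that of the Reactome pathway for assembly of beta-catenin with TCF factors on DNA, at -2.71, whose members include core histones. The exception was PID_WNT_CANONICAL_PATHWAY, the signalling proteins without histones, at 2.00 with 45% of its genes in the leading edge. VILIMAS_NOTCH1_TARGETS_UP, genes induced by NOTCH1 in T cell leukaemia, had -2.09 with 37% of its genes in the leading edge.

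Genes of cell division were mostly higher with B16F10. Of 53 cell cycle sets, 21 were called higher with B16F10 (39.6%, against 8.09% over all sets) and 5 higher with YUMM3.3 (9.43%, near 8.40%). Their median NES was 1.52 against 0.72 over all sets. FISCHER_G2_M_CELL_CYCLE, genes that peak before and in mitosis, had an NES of 2.41, with 53% of 201 genes in a leading edge that ended at 22% of the ranking. REACTOME_MITOTIC_PROMETAPHASE followed at 2.21 and REACTOME_RESOLUTION_OF_SISTER_CHROMATID_COHESION, the release of paired chromosomes, at 2.12. REACTOME_MITOTIC_SPINDLE_CHECKPOINT, which holds mitosis until chromosomes are attached, had 2.11 with 54% of 96 genes. KEGG_CELL_CYCLE had 1.94, while KEGG_DNA_REPLICATION, the replication enzymes, had 1.16 and was not called (q 0.380). The mitotic genes were thus called and the replication enzymes were not.

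**Figure D3:**
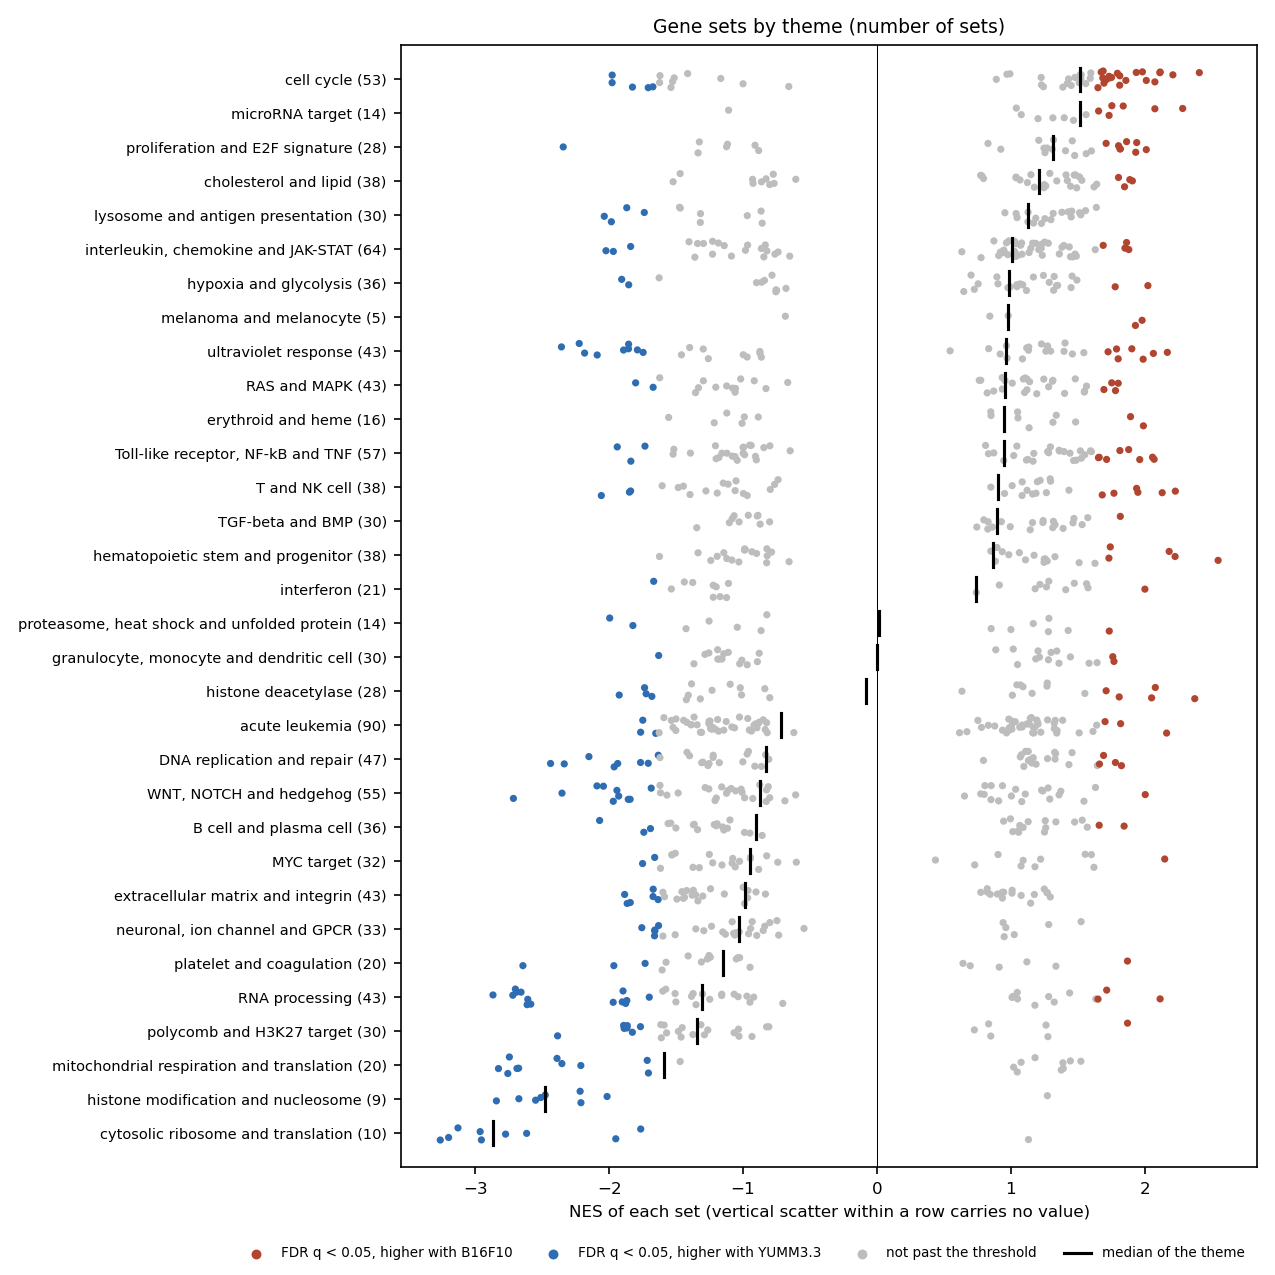
Signed NES of every set in the groups of sets named by function, 1 point per set, with called sets coloured by direction, uncalled sets in grey and a bar at the group's median. Ribosome and histone groups lie near -2.9 and -2.5 at the median, and the cell cycle and microRNA target groups at 1.52.

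The 5 cell cycle sets toward YUMM3.3 all list proteasome subunits. They include REACTOME_THE_ROLE_OF_GTSE1_IN_G2_M_PROGRESSION_AFTER_G2_CHECKPOINT at -1.98 and REACTOME_G2_M_CHECKPOINTS at -1.83, the latter also with core histones. Of 28 proliferation and E2F signatures, 8 were called higher with B16F10 (28.6%, against 8.09% over all sets). In the other direction 1 was called higher with YUMM3.3 (3.57%, against 8.40%). At the authors' family-wise p (FWER p) below 0.05 the same count was 0 and 1, so its direction rests on the milder threshold. KONG_E2F3_TARGETS, genes of a transcription factor of the S phase, had 1.93. CHICAS_RB1_TARGETS_LOW_SERUM, genes controlled by the E2F inhibitor RB1, was the exception at -2.34 with 36% of its genes by 8% of the ranking.

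Pathways that list nuclear pore proteins were mostly higher with B16F10. These proteins form the channels through which RNA and proteins cross the nuclear envelope, and many viral and cell division pathways list them. Of 19 such pathways, again listed after the values were seen, 17 were called higher with B16F10 and none higher with YUMM3.3, with a median NES of 1.99. Their leading edges held a median of 74% of the genes by 28% of the ranking. REACTOME_NUCLEAR_PORE_COMPLEX_NPC_DISASSEMBLY, the dismantling of pores in mitosis, had 2.22 with 81% of 32 genes. REACTOME_NUCLEAR_IMPORT_OF_REV_PROTEIN, named for a protein of a retrovirus, had 2.12 with 84% of 31 genes, the largest share of any called set in either direction. High tags with a late end of the leading edge mean that most genes of these sets lay over a wide stretch of the ranking on the B16F10 side. The histone pathways had smaller shares of their genes packed nearer the other end.

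RNA processing had members on both sides. Of 43 sets, 14 were called higher with YUMM3.3 (32.6%, against 8.40% over all sets) and 3 higher with B16F10 (6.98%, against 8.09%). Their median NES was -1.30. On the B16F10 side was REACTOME_TRANSPORT_OF_MATURE_MRNAS_DERIVED_FROM_INTRONLESS_TRANSCRIPTS, an export pathway of pore proteins, at 2.12. KEGG_SPLICEOSOME, the splicing machinery, had -1.58 and was not called (q 0.0686). Of 47 DNA replication and repair sets, 8 were called higher with YUMM3.3 (17.0%, against 8.40% over all sets). The largest of these were among the histone pathways above. Another 4 were called higher with B16F10 (8.51%, near the 8.09% over all sets). PID_FANCONI_PATHWAY, the repair of crosslinked DNA, had 1.69. REACTOME_RESOLUTION_OF_D_LOOP_STRUCTURES_THROUGH_SYNTHESIS_DEPENDENT_STRAND_ANNEALING_SDSA, a form of break repair, had 1.85 with 82% of 22 genes in the leading edge.

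Of 38 sets grouped by name under stem and progenitor cells, 5 were called higher with B16F10 (13.2%, against 8.09% over all sets). None was called higher with YUMM3.3, and the median NES of 0.87 was near the 0.72 over all sets. The 5 include a set of mature cells, placed here by its name only. IVANOVA_HEMATOPOIESIS_MATURE_CELL, genes of mature marrow cells, had the largest NES toward B16F10, 2.55, with 53% of 229 genes in a leading edge that ended at 21% of the ranking. IVANOVA_HEMATOPOIESIS_LATE_PROGENITOR had 2.18 with 48% of 402 genes. None of the sets for the earlier stages of the same study was called. IVANOVA_HEMATOPOIESIS_STEM_CELL had -0.99, IVANOVA_HEMATOPOIESIS_STEM_CELL_LONG_TERM had -1.34, IVANOVA_HEMATOPOIESIS_EARLY_PROGENITOR had 1.26 and IVANOVA_HEMATOPOIESIS_INTERMEDIATE_PROGENITOR had 0.94. EPPERT_PROGENITOR, genes of committed human progenitors, had 2.23 with 49% of 119 genes. WANG_IMMORTALIZED_BY_HOXA9_AND_MEIS1_UP, genes of progenitors immortalised by a pair of transcription factors, had 1.73 with 50% of 24 genes by 15% of the ranking. The difference between stages was not tested.

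Of 30 granulocyte, monocyte and dendritic cell sets, 2 were called higher with B16F10 (6.67%) and 1 higher with YUMM3.3 (3.33%), below the 8.09% and 8.40% over all sets. PID_GMCSF_PATHWAY, signalling by a growth factor of granulocytes and macrophages, had 1.76. THEILGAARD_NEUTROPHIL_AT_SKIN_WOUND_UP, genes induced in neutrophils that reach a wound, had 1.77. REACTOME_NEUTROPHIL_DEGRANULATION, the contents of neutrophil granules, had 1.28 and was not called (q 0.252). LIAN_NEUTROPHIL_GRANULE_CONSTITUENTS had -1.03 and was not called. REACTOME_ANTIMICROBIAL_PEPTIDES, small proteins that kill microbes and are stored in granules, had -1.83 with 31% of 51 genes by 23% of the ranking. Sets tied to interleukin 5, the growth factor of eosinophils, split by sign. BYSTROEM_CORRELATED_WITH_IL5_DN had 2.49 with 54% of 57 genes by 15%, and its counterpart BYSTROEM_CORRELATED_WITH_IL5_UP had -2.02 with 41% of 37 genes by 12%. NAKAJIMA_MAST_CELL, mast cell genes, had -1.63. REACTOME_TRANSCRIPTIONAL_REGULATION_OF_GRANULOPOIESIS, named for this lineage, fell outside the group by name and stands in the list of histone pathways above. It had -2.59 with 53% of 59 genes by 11% of the ranking.

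The marker sets of other cell types that the depletion could leave were as follows. Of 16 erythroid and heme sets, 2 were called higher with B16F10 (12.5%, against 8.09% over all sets) and none higher with YUMM3.3. Both concern erythropoietin, the hormone of red cell formation, namely PID_EPO_PATHWAY at 1.99 and REACTOME_SIGNALING_BY_ERYTHROPOIETIN at 1.89. None of the other 14 was called. Of 20 platelet and coagulation sets, 1 was called higher with B16F10 (5%) and 3 higher with YUMM3.3 (15%, against 8.40% over all sets). GNATENKO_PLATELET_SIGNATURE, transcripts of platelets, had -1.96 with 42% of its genes by 15% of the ranking. REACTOME_RUNX1_REGULATES_GENES_INVOLVED_IN_MEGAKARYOCYTE_DIFFERENTIATION_AND_PLATELET_FUNCTION had -2.64, and that pathway also lists core histones.

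Of 36 B and plasma cell sets, 2 were called higher with B16F10 (5.56%) and 3 higher with YUMM3.3 (8.33%), at or below the shares of 8.09% and 8.40% over all sets. HOFFMANN_PRE_BI_TO_LARGE_PRE_BII_LYMPHOCYTE_UP, genes of dividing B cell precursors in marrow, had -1.74 with 27% of 26 genes by 6% of the ranking. TARTE_PLASMA_CELL_VS_PLASMABLAST_UP, genes of antibody-secreting cells, had -2.07. HADDAD_B_LYMPHOCYTE_PROGENITOR had -1.14 and was not called (q 0.435). SHAFFER_IRF4_TARGETS_IN_ACTIVATED_B_LYMPHOCYTE, targets of a factor for B cell activation, had 1.85.

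Sets built on the T cell receptor and on the major histocompatibility complex (MHC), which presents antigen to it, were higher with YUMM3.3. A list of 24 such pathways, made with the values known, had 15 called higher with YUMM3.3 and none higher with B16F10, with NES from -2.32 to 1.30 and a median of -1.84. KEGG_GRAFT_VERSUS_HOST_DISEASE, which lists MHC molecules and cytotoxic genes, had -2.32 with 47% of 32 genes by 11% of the ranking. REACTOME_PD_1_SIGNALING, the inhibitory receptor of T cells with its MHC and receptor partners, had -2.11 with 71% of 17 genes by 12%. REACTOME_PHOSPHORYLATION_OF_CD3_AND_TCR_ZETA_CHAINS, the first step of receptor signalling, had -1.85 with 69% of 16 genes by 11%. This last set names the molecule used for the depletion. Sets of broader receptor signalling were divided. KEGG_T_CELL_RECEPTOR_SIGNALING_PATHWAY had 1.30 and was not called (q 0.238). REACTOME_TCR_SIGNALING was called at -1.84 and REACTOME_DOWNSTREAM_TCR_SIGNALING at -2.06. The leading edge of REACTOME_DOWNSTREAM_TCR_SIGNALING ended at 15% of the ranking, as in most of the proteasome list. REACTOME_MHC_CLASS_II_ANTIGEN_PRESENTATION, which adds transport proteins, had 1.13 (q 0.413). The part of residual T cells, or of genes shared with the proteasome list, in these scores was not tested.

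The broader T and NK cell group, by name, had calls in both directions. Of 38 sets, 6 were called higher with B16F10 (15.8%, against 8.09% over all sets) and 3 higher with YUMM3.3 (7.89%, against 8.40%), and at q below 0.25 the counts were 9 and 7. ZHENG_FOXP3_TARGETS_IN_THYMUS_UP, genes bound and raised by the factor of regulatory T cells, had 2.23 with 59% of 158 genes by 27% of the ranking. ZHENG_BOUND_BY_FOXP3 had 1.95. KIM_GERMINAL_CENTER_T_HELPER_UP, genes of helper T cells in germinal centres, had 2.13. The called receptor and MHC sets and these signatures therefore had scores of opposite sign. REACTOME_INTERLEUKIN_7_SIGNALING, the receptor of lymphoid precursors, had -1.84 with 39% of its genes by 7% of the ranking, and histones are among its listed members.

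Of 57 Toll-like receptor, NF-kB and TNF sets, 8 were called higher with B16F10 (14.0%, against 8.09% over all sets) and 3 higher with YUMM3.3 (5.26%, against 8.40%). Their median NES of 0.95 was near the 0.72 over all sets. REACTOME_TRIF_TICAM1_MEDIATED_TLR4_SIGNALING, a branch of the endotoxin receptor pathway, had 2.07 with 47% of 85 genes by 17% of the ranking. REACTOME_TOLL_LIKE_RECEPTOR_9_TLR9_CASCADE, the sensor of microbial DNA, had 2.06, and REACTOME_TOLL_LIKE_RECEPTOR_4_TLR4_CASCADE had 1.96 with 43% of 114 genes. The 3 sets toward YUMM3.3 list proteasome subunits, among them REACTOME_TNFR2_NON_CANONICAL_NF_KB_PATHWAY at -1.94 and REACTOME_DECTIN_1_MEDIATED_NONCANONICAL_NF_KB_SIGNALING at -1.84. Of 64 interleukin and chemokine sets, 4 were called higher with B16F10 (6.25%) and 3 higher with YUMM3.3 (4.69%), both below the shares over all sets, so the group does not stand apart and its called members are given as single values. REACTOME_INTERLEUKIN_17_SIGNALING, a driver of granulocyte output, had 1.88 and PID_IL1_PATHWAY, an inflammatory cytokine, had 1.85. REACTOME_CHEMOKINE_RECEPTORS_BIND_CHEMOKINES, the attractants of leukocytes, had -1.97 with 38% of its genes by 13%.

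Interferon sets gave 1 call in each direction of 21. REACTOME_ANTIVIRAL_MECHANISM_BY_IFN_STIMULATED_GENES had 2.00 with 66% of 74 genes by 28% of the ranking, and it lists nuclear pore proteins. RADAEVA_RESPONSE_TO_IFNA1_UP, genes induced by interferon alpha, had -1.67 with 41% of its genes by 13%. A share of 1 in 21 is below the background of 8.09% and 8.40%.

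Several sets of lipid kinases and growth signalling were called higher with B16F10. The lists on phosphoinositides, mTOR and insulin, MET and the Golgi were also made after the values were seen, so their counts describe and test nothing. Over all sets 8.09% were called higher with B16F10. Of 8 phosphoinositide sets, the signalling lipids of membranes, 6 were called higher with B16F10. REACTOME_PI_METABOLISM had 2.28 with 53% of 73 genes by 21% of the ranking, and REACTOME_SYNTHESIS_OF_PIPS_AT_THE_PLASMA_MEMBRANE had 2.27 with 57% of 46 genes. Of 12 sets on mTOR, the nutrient-sensing kinase, and on insulin signalling, 7 were called higher with B16F10. PID_MTOR_4PATHWAY had 2.06 with 60% of 58 genes, and PID_INSULIN_PATHWAY had 1.96 with 70% of 40 genes. REACTOME_MTORC1_MEDIATED_SIGNALLING, the branch closest to translation, had 1.40 and was not called (q 0.155). Signalling components of mTOR were thus on the B16F10 side while the mTOR-dependent transcripts named above were on the YUMM3.3 side.

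MET, a receptor of hepatocyte growth factor that melanomas can use, followed the same side. Of 6 MET sets, 4 were called higher with B16F10. SEIDEN_ONCOGENESIS_BY_MET had 2.29 with 46% of 74 genes by 13% of the ranking, and PID_MET_PATHWAY had 2.18 with 46% of 72 genes by 16%. REACTOME_MET_ACTIVATES_PTK2_SIGNALING, which lists laminins and collagens, had -1.01 and was not called. MILI_PSEUDOPODIA_HAPTOTAXIS_UP, transcripts found in the protrusions of migrating cells, had 2.45. Of 13 Golgi and vesicle transport sets, 6 were called higher with B16F10, led by REACTOME_INTRA_GOLGI_TRAFFIC at 1.91 with 51% of 39 genes. None of these 4 signalling and transport lists had a set called higher with YUMM3.3, but they were drawn up with the values known.

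Among single pathways of signalling, PID_TGFBR_PATHWAY, the receptor of transforming growth factor beta, had 1.82 with 68% of its genes by 30% of the ranking. It was the only called set of 30 for that family (3.33%, against 8.09% over all sets). BAKKER_FOXO3_TARGETS_UP, targets of a factor that insulin signalling holds out of the nucleus, had 2.38 with 48% of its genes by 14%. Of 43 RAS and MAPK sets, 4 were called higher with B16F10 (9.30%) and 2 higher with YUMM3.3 (4.65%), near or below the 8.09% and 8.40% over all sets. BIOCARTA_MAPK_PATHWAY had 1.80, and REACTOME_REGULATION_OF_RAS_BY_GAPS, which lists proteasome subunits, had -1.67. Of 38 cholesterol and lipid sets, 4 were called higher with B16F10 (10.5%, against 8.09%) and none higher with YUMM3.3, led by REACTOME_PHOSPHOLIPID_METABOLISM at 1.91.

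Sets defined by experiments on other cells also split. All 6 called sets of the 14 microRNA target sets were higher with B16F10 (42.9%, against 8.09% over all sets). The median NES over the 14 was 1.52. GABRIELY_MIR21_TARGETS, targets of a microRNA abundant in myeloid cells, had 2.28 with 43% of 244 genes by 19% of the ranking. Of 43 ultraviolet response sets, 7 were called higher with B16F10 (16.3%, against 8.09% over all sets) and 9 higher with YUMM3.3 (20.9%, against 8.40%). That balance turned to 12 and 11 at q below 0.25. Sets named by direction of change were also counted, with the DN sets, which are not among the 43, added. Of the 12 whose names end in UP, 6 were called higher with YUMM3.3 (50%, against 5.68% of all sets ending in UP). None was called higher with B16F10. The 7 calls with B16F10 among the 43 were thus of sets with neither ending. Of the 13 whose names end in DN, 6 were called higher with B16F10 (46.2%, against 7.11% of all sets ending in DN). None was called higher with YUMM3.3. The called sets of genes that ultraviolet light induces elsewhere were thus on the YUMM3.3 side. The called sets of genes that it represses were on the B16F10 side. ENK_UV_RESPONSE_KERATINOCYTE_UP had -2.36 with 38% of 456 genes, and DACOSTA_UV_RESPONSE_VIA_ERCC3_COMMON_DN had 2.49 with 49% of 391 genes.

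Of 28 histone deacetylase sets, 5 were called higher with B16F10 (17.9%, against 8.09% over all sets) and 4 higher with YUMM3.3 (14.3%, against 8.40%). That balance turned to 6 and 8 at q below 0.25. SENESE_HDAC1_TARGETS_UP had 2.37 with 45% of 363 genes by 22% of the ranking. Of 5 melanoma sets, 2 were called higher with B16F10 (40%, against 8.09% over all sets). WINNEPENNINCKX_MELANOMA_METASTASIS_UP, a list with many cell division genes, had 1.98, and KAUFFMANN_MELANOMA_RELAPSE_UP, a list with DNA repair genes, had 1.93. Of 32 MYC target sets, 1 was called higher with B16F10 and 2 higher with YUMM3.3, below the shares over all sets, and the counts became 1 and 0 at FWER p below 0.05. The 90 acute leukaemia sets did not lean to a side, with 3 called higher with B16F10 and 3 higher with YUMM3.3. Each share was 3.33%, below the 8.09% and 8.40% over all sets.

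Each tumour group was also compared by the authors with the healthy marrow, and those scores are placed beside the ones above. All 3 marrow comparisons share libraries, so the scores are not separate evidence and no measure of their likeness is given. No q threshold was applied to the scores against healthy, so a sign there is not a call. In the authors' deposited tables KEGG_RIBOSOME had an NES of 2.12 for B16F10 against healthy and of 3.13 for YUMM3.3 against healthy. Both tumour groups thus had ribosomal genes above healthy marrow, and YUMM3.3 had them higher than B16F10. KEGG_OXIDATIVE_PHOSPHORYLATION had 2.44 and 2.95 in the same order. The median of the 49 histone pathways was 1.72 and 2.43. KEGG_PROTEASOME had 2.52 and 2.33, so that the score against healthy was slightly larger for B16F10 although the direct contrast was called toward YUMM3.3.

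On the B16F10 side the 2 tumours mostly had opposite scores against healthy. IVANOVA_HEMATOPOIESIS_MATURE_CELL had 2.12 for B16F10 and -2.17 for YUMM3.3. FISCHER_G2_M_CELL_CYCLE had 1.87 and -2.17, and REACTOME_NUCLEAR_PORE_COMPLEX_NPC_DISASSEMBLY had 1.45 and -2.17. REACTOME_TRIF_TICAM1_MEDIATED_TLR4_SIGNALING had 2.00 and -1.81. Other sets had a negative NES against healthy with both tumours, in part of small size. GABRIELY_MIR21_TARGETS had -2.21 and -2.59, and ZHENG_FOXP3_TARGETS_IN_THYMUS_UP had -1.86 and -2.49. REACTOME_PI_METABOLISM had -1.17 and -2.27. In each of these 3 sets the score against healthy was the lower one for YUMM3.3.

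Of the 24 MHC and T cell receptor sets, 16 had a negative NES for B16F10 against healthy and a positive one for YUMM3.3 against healthy, whether called or not. KEGG_GRAFT_VERSUS_HOST_DISEASE had -2.25 for B16F10 against healthy and 1.84 for YUMM3.3 against healthy. REACTOME_PHOSPHORYLATION_OF_CD3_AND_TCR_ZETA_CHAINS had -2.04 and 1.43. Among the other 8, REACTOME_DOWNSTREAM_TCR_SIGNALING had 1.61 and 2.18 and REACTOME_TCR_SIGNALING had 1.38 and 1.94. Both signs were positive for these, as for the medians of the proteasome list. KEGG_T_CELL_RECEPTOR_SIGNALING_PATHWAY had -1.38 and -1.40. GNATENKO_PLATELET_SIGNATURE had -1.34 and 1.72. REACTOME_NEUTROPHIL_DEGRANULATION, not called between the tumours, had 2.69 and 1.41, both positive.

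**Figure D4:**
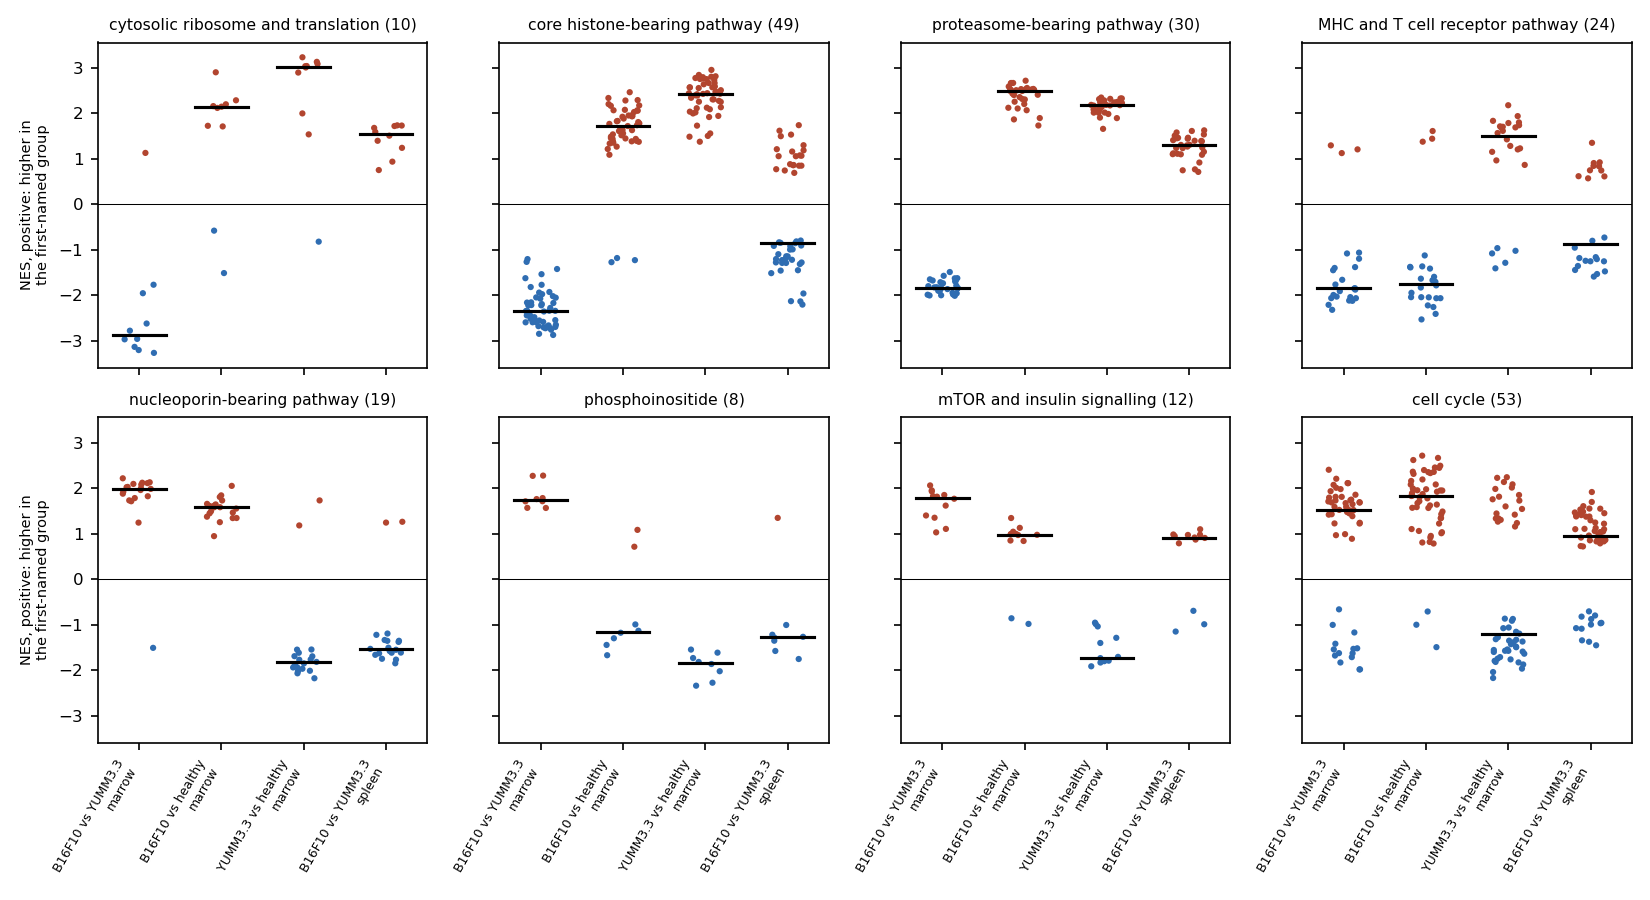
Signed NES (vertical axis) of the sets in 8 groups, 1 panel per group and 1 point per set, in 4 comparisons: B16F10 against YUMM3.3 marrow, each tumour's marrow against healthy marrow, and B16F10 against YUMM3.3 spleen, with a line at the median and red for higher in the first-named group. The ribosome medians are -2.86, 2.13, 3.02 and 1.55, so the sign in spleen is opposite to that in marrow.

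The same contrast of tumours was deposited for spleen, from 2 libraries of each group that are separate from the marrow libraries, although whether they came from the same animals is not stated. In spleen 374 of 3883 sets were called higher with B16F10 (9.63%) and 57 higher with YUMM3.3 (1.47%). Of the 314 sets called higher with B16F10 in marrow, 12 were also called higher with B16F10 in spleen. That is 3.82% of the marrow list and 3.21% of the spleen list, below the 9.63% and 8.09% over all sets. A further 14 of the 314 were called higher with YUMM3.3 in spleen, 4.46% of the marrow list and 24.6% of the spleen list. The shares over all sets were 1.47% and 8.09%. Of the 326 called higher with YUMM3.3 in marrow, 44 were called higher with B16F10 in spleen. That is 13.5% and 11.8% of the lists, against 9.63% and 8.40% over all sets. A further 4 were called higher with YUMM3.3 in both organs, 1.23% of the marrow list and 7.02% of the spleen list, near the shares of 1.47% and 8.40% over all sets. Sets called in both organs thus had opposite signs in 58 of 74 cases. Across the 3883 sets, which share genes and are not independent, Pearson's r between marrow and spleen NES was -0.18, and it was -0.30 across the 640 sets called in marrow.

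The 16 sets with a shared direction included blood cell sets on the B16F10 side and histone modification sets on the YUMM3.3 side. IVANOVA_HEMATOPOIESIS_MATURE_CELL had 2.55 in marrow and 2.88 in spleen, and IVANOVA_HEMATOPOIESIS_LATE_PROGENITOR had 2.18 and 2.17. EPPERT_PROGENITOR had 2.23 and 1.78, and VALK_AML_CLUSTER_8, a class of acute myeloid leukaemia, had 2.16 and 2.32. On the YUMM3.3 side, REACTOME_HDMS_DEMETHYLATE_HISTONES had -2.55 and -2.13, REACTOME_RMTS_METHYLATE_HISTONE_ARGININES had -2.48 and -1.96, and REACTOME_PKMTS_METHYLATE_HISTONE_LYSINES had -2.22 and -2.13. These 3 add many modifying enzymes to the histones. The histone pathways as a list had a spleen median of -0.85, with 4 of 49 called higher with YUMM3.3 and 1 higher with B16F10. Over all sets the shares in spleen were 1.47% with YUMM3.3 and 9.63% with B16F10.

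Ribosome, respiration and platelet sets changed sides between the organs. KEGG_OXIDATIVE_PHOSPHORYLATION had -2.76 in marrow and 1.83 in spleen, and GNATENKO_PLATELET_SIGNATURE had -1.96 and 1.76. GABRIELY_MIR21_TARGETS had 2.28 and -2.23, and DACOSTA_UV_RESPONSE_VIA_ERCC3_COMMON_DN had 2.49 and -2.22. The nuclear pore list had a median of 1.99 in marrow and -1.53 in spleen. In spleen only 1 of its 19 sets was called higher with YUMM3.3 and none higher with B16F10. That set, REACTOME_SUMOYLATION_OF_CHROMATIN_ORGANIZATION_PROTEINS at -1.84, also had a negative NES in marrow, of -1.50. The spleen scores of this list are therefore mostly signs and not calls. Granule and antimicrobial genes were on the B16F10 side in spleen, where REACTOME_NEUTROPHIL_DEGRANULATION had 2.24 and REACTOME_ANTIMICROBIAL_PEPTIDES had 2.03, against 1.28 and -1.83 in marrow.

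**Figure D5:**
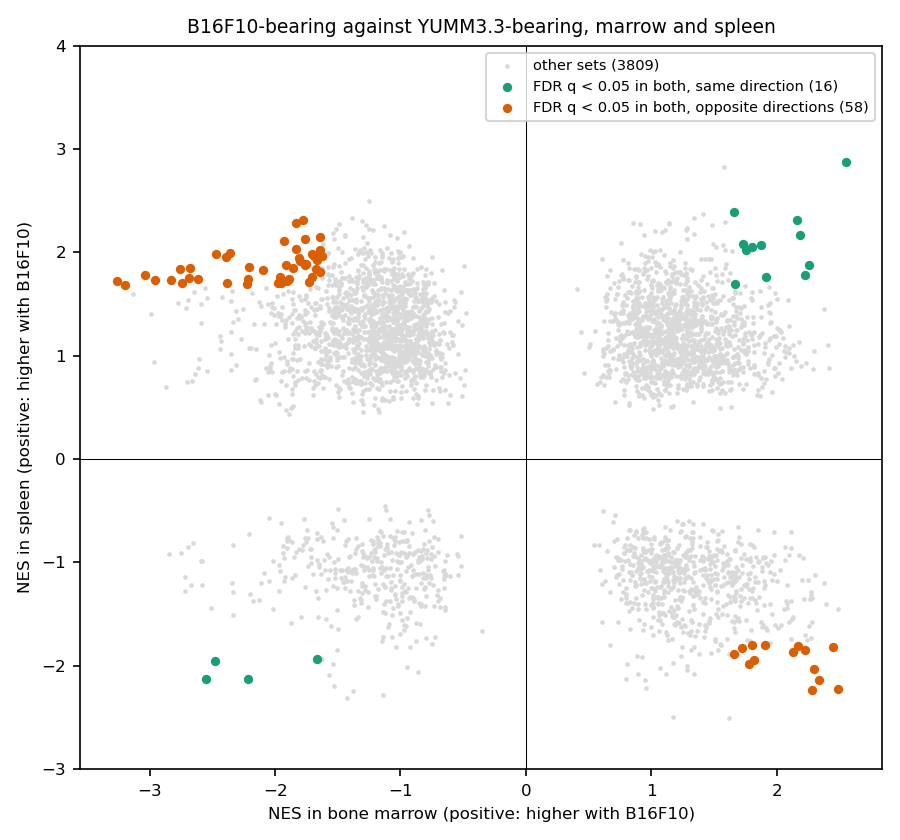
Signed NES in marrow (horizontal axis) against spleen (vertical axis) for B16F10 against YUMM3.3, 1 point per set over 3883 sets, with sets called in both organs coloured by whether the signs are the same or opposite. Opposite signs were found for 58 of the 74 sets called in both.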

How the data were processed

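The deposited reports hold gene set results only. Per the file headers, each row gives a set, its size, the ES and NES scores, the rank at the maximum, the leading edge, and p-values (nominal p and FWER p) and q-values (FDR q) as the authors' enrichment tool wrote them. Per the submitters' processing notes, FastQC 0.11.8, STAR 2.7.1a, featureCounts 1.6.0, DESeq2 1.22.2 and the mm10 build were used, and their roles, the ranking metric and the permutation are not given in the sources used here. Sequencing depth is unknown here. Of 14 reports 8 were used, and those of the other comparisons were not analysed here.

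Reports were joined by set name, signs were set from the report's direction, and sets were grouped by patterns in their names, leaving out names ending in DN except where stated. Groups were described by counts and medians, with no test. Named sets were, per direction, the 15 with the largest NES size (no more than 3 that begin with the same word), 3 per group and the 5 with the largest leading-edge share. Any other set was chosen after its values were seen. All sets, groups and lists were chosen with earlier results of these data known. Counting was tested on simulated reports. Python 3.11.15, pandas 2.3.3, numpy 2.4.6 and matplotlib 3.10.9 were used. Alternatives were other thresholds, a size limit, counting each source once and keeping DN sets. A few sets and 2 groups of sets are not reported here.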

Additional observations from a re-analysis of the deposited data

How the results depend on the processing

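Counts of called sets depended on the threshold, and both directions moved together. The count higher with B16F10 was 314 at FDR q below 0.05, 828 at q below 0.25, 47 at FWER p below 0.05, 138 with each source (first word of the name) counted once and 226 for sets of 25 to 200 genes. The count higher with YUMM3.3 was 326, and 695, 84, 96 and 251 under the same settings. More sets were called with B16F10 than with YUMM3.3 at q below 0.25 and with each source counted once, and fewer under the other settings. The lysosome and antigen presentation sets, 0 with B16F10 and 4 with YUMM3.3, became 10 and 8 at q below 0.25. The ultraviolet sets became 6 and 4 for 25 to 200 genes and 13 and 9 with DN sets kept, and the histone deacetylase sets became 2 and 4 with each source counted once. Ranking by ES in place of NES kept 4 of the 20 leading sets with B16F10 and 13 of 20 with YUMM3.3, since small sets have larger ES. No paired analysis was possible because the files hold 1 value per set and none per library, and for the same reason no replicate could be left out. The depth of the libraries and the level of the genes behind a score are not known here.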
